A study of Mus musculus with 4 samples.

Results

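Genes of glycolysis and of the response to low oxygen were followed in EO771 cells, a mouse mammary carcinoma line, after exposure to adipose fatty acid binding protein. The set is a list of 40 genes chosen by name, with transporters, glycolytic enzymes, hypoxia-inducible factors and their textbook targets. The rule used no measured values, but the list was drawn up with earlier results of these data known. The array annotation gave 35 of them a probe set that names no other gene, out of 22180 genes measured in all, and the brightest such probe set stands for each gene. Ero1l was matched through its current symbol, Ero1a, which has the same gene identifier. Gpi1 and Eno1 had no such probe set, and Aldoa, Bnip3l and Ankrd37 were found only on probe sets that name several genes, so these 5 genes have no value here.

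Both groups consisted of EO771 cells grown for 24 hours to a confluence of at least 70%, and each group had 2 arrays. The treated group received the recombinant mouse protein, called A-FABP and encoded by Fabp4, in the medium at 100 ng/ml, and the control group received PBS. The sources used here do not give the duration of exposure or the oxygen level during culture. All values come from a single cell line, and nothing says that the biological replicates named in the titles were separate cultures, so p-values measure only the spread between these arrays. A free-text label of the controls mentions A-FABP too, but titles, source names and the stated design make them PBS controls.

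Glycolysis splits glucose into pyruvate in the cytosol, and pyruvate is either oxidised in mitochondria or reduced to lactate, which leaves the cell through monocarboxylate transporters. Hypoxia-inducible factors pair an oxygen-regulated alpha subunit (Hif1a, Epas1) with the constant partner Arnt. In the presence of oxygen, prolyl hydroxylases of the Egln family mark the alpha subunits and the Vhl protein directs their destruction. When oxygen falls, the factors bind a short core sequence, ACGTG or GCGTG, near genes for glucose uptake, glycolysis, pH control and vessel growth. Tumour cells often keep glycolysis high even when oxygen is present. Because much of this regulation acts on protein stability, transcript levels of the factors are not a measure of their activity.

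The differences farthest from 0 among the 35 genes were those of Adm and Vegfa, secreted factors of the hypoxia response, followed by Ldhb. Adm, which encodes the vasodilator peptide adrenomedullin, lay at a log2 difference of -0.36 ± 0.09 (SE, 2 arrays per group), and Vegfa, the main growth factor for blood vessels, at -0.35 ± 0.08. The core glycolytic enzymes Pfkm, Pfkp, Tpi1, Gapdh, Pgk1 and Pkm lay between -0.04 and 0.02. Differences below are A-FABP minus PBS on the log2 scale of the deposited RMA values, tested with limma over the whole table, with p-values adjusted by the method of Benjamini and Hochberg and a threshold of 0.05. No gene of the set passed: limma adjusted p-values ran from 0.296 to 0.979, with 0 of 35 under 0.05, as with 0 of 22180 genes overall (0%). Directions below therefore describe values, without a call. Unadjusted limma p-values were under 0.05 for 5 lower genes (14.3%, where all genes had 8.24%) and 1 higher gene (2.86%, where all genes had 4.81%). After each array was centred on its median, the set had 2 lower and 3 higher. All 22180 genes then had 1048 lower and 1812 higher, so the balance turned over the whole table as well.

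Upstream sequences are shown for 4 genes, since Adm and Vegfa had the largest differences and Ldha and Car9 are textbook targets of the hypoxia-inducible factors that lay on opposite sides of 0. Each line gives the 250 bases before the most upstream annotated start of the gene, read 5′ to 3′ on the strand of the gene, from RefSeq windows of build GRCm38.p6. Capitals mark ACGTG or GCGTG on either strand, and adjoining or overlapping matches run together. Adm was read at chr7:110627407-110627656 on the plus strand, Vegfa at chr17:46032378-46032627 on the minus strand, Ldha at chr7:46845554-46845803 on the plus strand and Car9 at chr4:43506776-43507025 on the plus strand.
Adm: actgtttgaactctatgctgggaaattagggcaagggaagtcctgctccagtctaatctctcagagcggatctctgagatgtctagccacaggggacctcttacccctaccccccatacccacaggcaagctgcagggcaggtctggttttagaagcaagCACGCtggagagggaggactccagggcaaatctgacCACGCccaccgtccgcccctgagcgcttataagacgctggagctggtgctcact
Vegfa: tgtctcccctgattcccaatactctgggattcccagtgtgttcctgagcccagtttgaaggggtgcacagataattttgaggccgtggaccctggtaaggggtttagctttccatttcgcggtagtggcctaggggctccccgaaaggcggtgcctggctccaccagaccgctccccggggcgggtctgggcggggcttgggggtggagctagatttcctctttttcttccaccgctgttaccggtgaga
Ldha: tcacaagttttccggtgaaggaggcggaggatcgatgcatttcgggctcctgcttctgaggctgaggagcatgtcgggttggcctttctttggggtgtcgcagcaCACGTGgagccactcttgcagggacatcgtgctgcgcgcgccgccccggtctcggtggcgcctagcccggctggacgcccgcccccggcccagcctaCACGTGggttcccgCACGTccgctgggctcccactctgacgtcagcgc
Car9: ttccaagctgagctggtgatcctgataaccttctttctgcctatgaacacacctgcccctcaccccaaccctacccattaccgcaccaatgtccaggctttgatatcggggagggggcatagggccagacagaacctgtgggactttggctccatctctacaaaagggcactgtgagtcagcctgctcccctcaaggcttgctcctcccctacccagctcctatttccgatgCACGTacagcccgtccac

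The Adm window holds 2 separate matches, which begin 90 and 54 bases before the start. The Ldha window holds 3, of which those beginning at 145 and 48 bases read ACGTG on both strands as CACGTG. The Car9 window holds 1, at 18 bases. The printed Vegfa window holds 0, which says only that these letters are not in this stretch. Of the 32 measured genes with a RefSeq window, 26 (81.2%) held at least 1 match, whereas 10442 of 27025 genes (38.6%) did so overall. The latter are all genes with a window, measured here or not, and were not matched to the set in level or base composition. Among the genes below 0, 15 of 20 held a match, and among those above 0, 11 of 12. Slc2a3, Epas1 and Ndrg1 had no window. A match is a description of letters and not of a bound site.

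**Figure D1:**
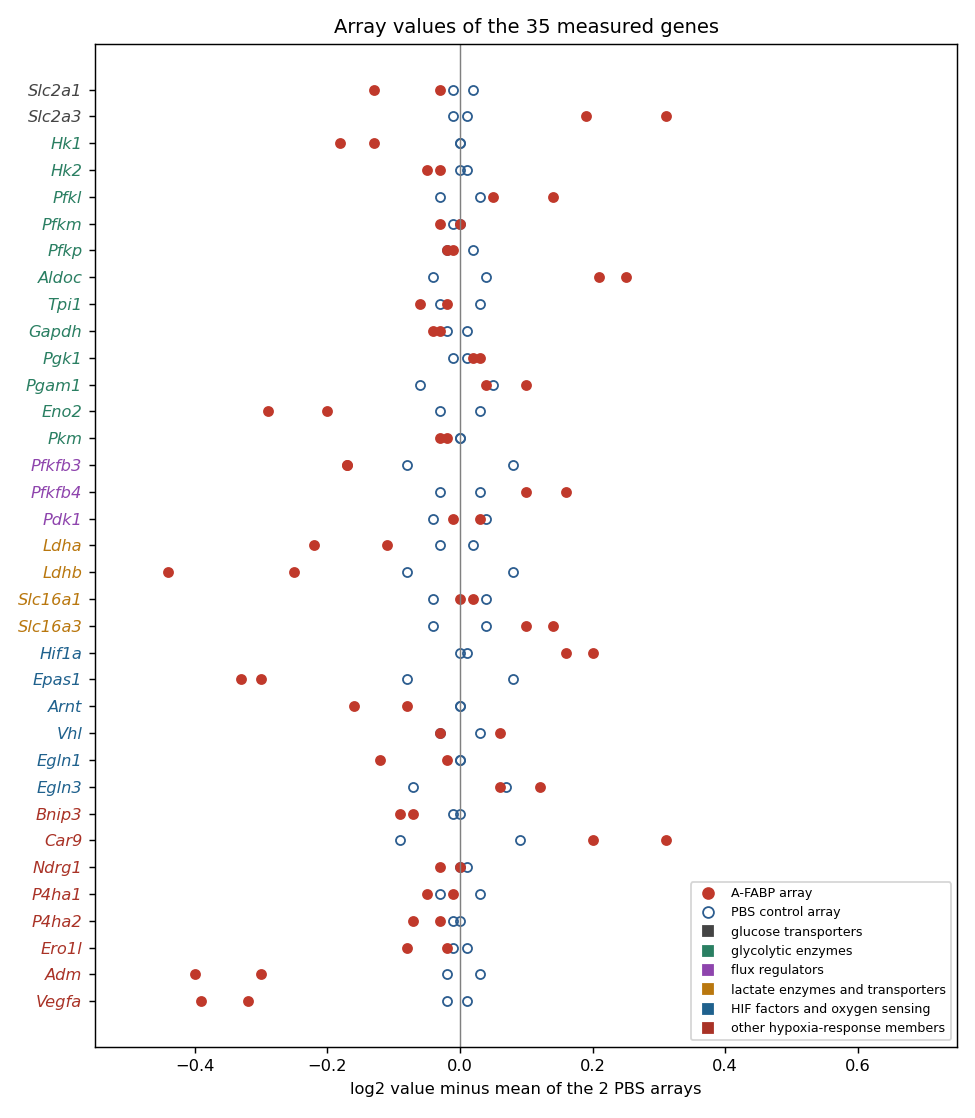
Log2 values of the 35 measured genes on each array (filled, A-FABP; open, PBS control; 2 arrays each), drawn as the distance from the mean of the PBS arrays, with gene names coloured by role. Adm, Vegfa, Epas1, Ldhb and Eno2 have both A-FABP arrays clearly to the left of both controls, Slc2a3, Aldoc, Car9 and Hif1a have them to the right, and most glycolytic enzymes lie close to 0.

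In 26 of 35 genes both arrays of a group lay above both arrays of the other, against 53.5% of all genes. Of these, 18 lay lower with A-FABP (27.5% of all genes did) and 8 lay higher (26.0% of all genes). The median difference over the 35 genes was -0.03 (quartiles -0.10 and 0.05), and over all 22180 genes -0.01 (quartiles -0.16 and 0.10). Differences under 0.1 in size were found in 20 of 35 genes (57.1%), against 40.7% of all genes. With only genes of a mean log2 value of at least 7, the shares were 60.6% in the set and 54.2% over all genes.

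The balance between lower and higher genes depended on the scaling. With the values as deposited, 22 genes lay below 0 and 13 above (37.1%, where all genes had 47.6%). After each array was centred on its median, 12 lay below and 23 above, and the median of the set was 0.04. Under that scaling the groups did not overlap in 9 lower and 18 higher genes of the set, and in 56.7% of all genes in either direction. The share of all genes was not split by direction there, so these counts have no background by direction. At an unadjusted p under 0.05 the set then had 2 lower and 3 higher genes, and all genes had 1048 lower and 1812 higher, against 1828 and 1066 as deposited. After cyclic loess 24 lay below and 11 above, and after repeated quantile normalization 25 and 10. All genes moved too: their median went from -0.01 to 0.05 under median centring, -0.00 after cyclic loess and -0.02 after repeated quantile normalization. Their split around 0 was counted only for the values as deposited. The 9 genes Adm, Vegfa, Epas1, Ldhb, Eno2, Slc2a3, Aldoc, Car9 and Hif1a kept their side of 0 under each of these scalings.

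The size and sign of differences also varied with brightness. Those genes with a mean log2 value of 5 to 6 had a median difference of -0.15, and genes between 7 and 9 had one of 0.09. Of the 35 genes, 33 had a mean of at least 7, and 20 of these lay below 0. Among all 9161 genes at such a level, 2537 lay below 0. At an unadjusted p under 0.05, 3 of the 33 lay lower (9.09%) and 1 higher, where 139 of the 9161 lay lower (1.52%) and 610 higher (6.66%).

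**Figure D2:**
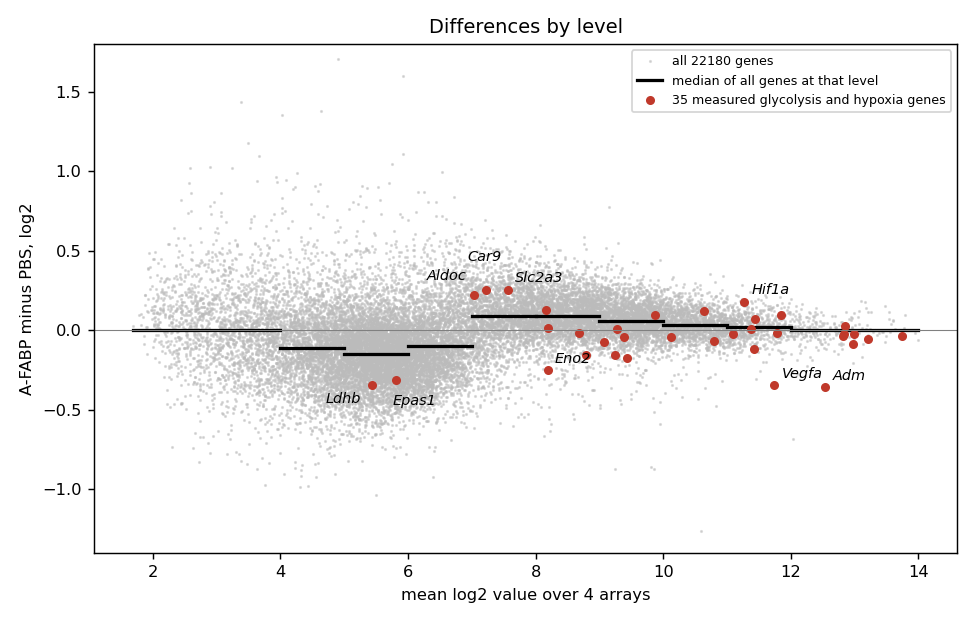
Difference between A-FABP and PBS (log2, vertical axis) against the mean log2 value over 4 arrays (horizontal axis) for 22180 genes in grey, with the 35 measured genes in red and black bars for the median of all genes within each level range. Adm and Vegfa lie below nearly all genes of their brightness, while Ldhb and Epas1 lie in the dim range whose median is itself at -0.15.

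Glucose enters these cells through facilitative transporters of the Slc2a family. Slc2a1, which encodes the basal glucose transporter and is a standard target of the hypoxia response, read 12.98 and 12.88 under A-FABP and 13.03 and 13.00 under PBS. Its groups did not overlap, and the difference was -0.08 (95% confidence interval, CI, -0.32 to 0.15). Slc2a3, which encodes a high-affinity glucose transporter, read 7.63 and 7.75 under A-FABP and 7.43 and 7.45 under PBS. Both A-FABP arrays were higher than both controls, with a difference of 0.26 ± 0.09 (95% CI 0.01 to 0.50; limma adjusted p = 0.323). It was the only gene of the set above 0 at an unadjusted p under 0.05 (0.0452), a share of 2.86% against 4.81% of all genes, and it no longer met this level after cyclic loess, after repeated quantile normalization or with any array left out, where it lay between 0.19 and 0.32.

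The early enzymes of glycolysis trap and split the sugar. Hk1, the housekeeping hexokinase, read 8.73 and 8.68 under A-FABP and 8.86 on each PBS array. The A-FABP arrays were lower than the controls, by a difference of -0.15 (95% CI -0.37 to 0.06). Hk2, the inducible hexokinase of tumours, read 9.35 and 9.37 against 9.40 and 9.41, a non-overlapping but small difference of -0.04 (95% CI -0.26 to 0.17). The phosphofructokinase subunits Pfkm and Pfkp both lay at -0.02 with overlapping groups. The liver-type subunit Pfkl read 9.88 and 9.97 against 9.86 and 9.80, a difference of 0.10 (95% CI -0.14 to 0.33).

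Aldoc, the brain-type aldolase, lay further from 0 than the other early enzymes. It read 7.13 and 7.17 under A-FABP and 6.88 and 6.96 under PBS. Both A-FABP arrays were higher, at a difference of 0.22 ± 0.08 (95% CI -0.01 to 0.46; limma adjusted p = 0.336, unadjusted p = 0.0546). Tpi1, which interconverts the triose products, lay at -0.04 with overlapping groups.

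In the later steps, which yield ATP and pyruvate, Gapdh, Pgk1 and Pkm lay at -0.03, 0.02 and -0.02. These genes had PBS means of 13.77, 12.83 and 12.85, and their 95% intervals reached no further than -0.25 and 0.24. Gapdh read 13.74 and 13.73 against 13.78 and 13.75. Eno2, the neuronal enolase that is also induced in low oxygen, read 8.02 and 8.11 under A-FABP and 8.28 and 8.34 under PBS. Its A-FABP arrays were both lower, with a difference of -0.25 ± 0.08 (95% CI -0.49 to -0.01; limma adjusted p = 0.319). Over the 12 measured glycolytic enzymes, 8 lay below 0 and 4 above (33.3%, where all genes had 47.6%). Genes with a mean of at least 7, as all of these have, had 72.3% above 0. The median of the 12 enzymes was -0.02 (0.04 after median centring).

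**Figure D3:**
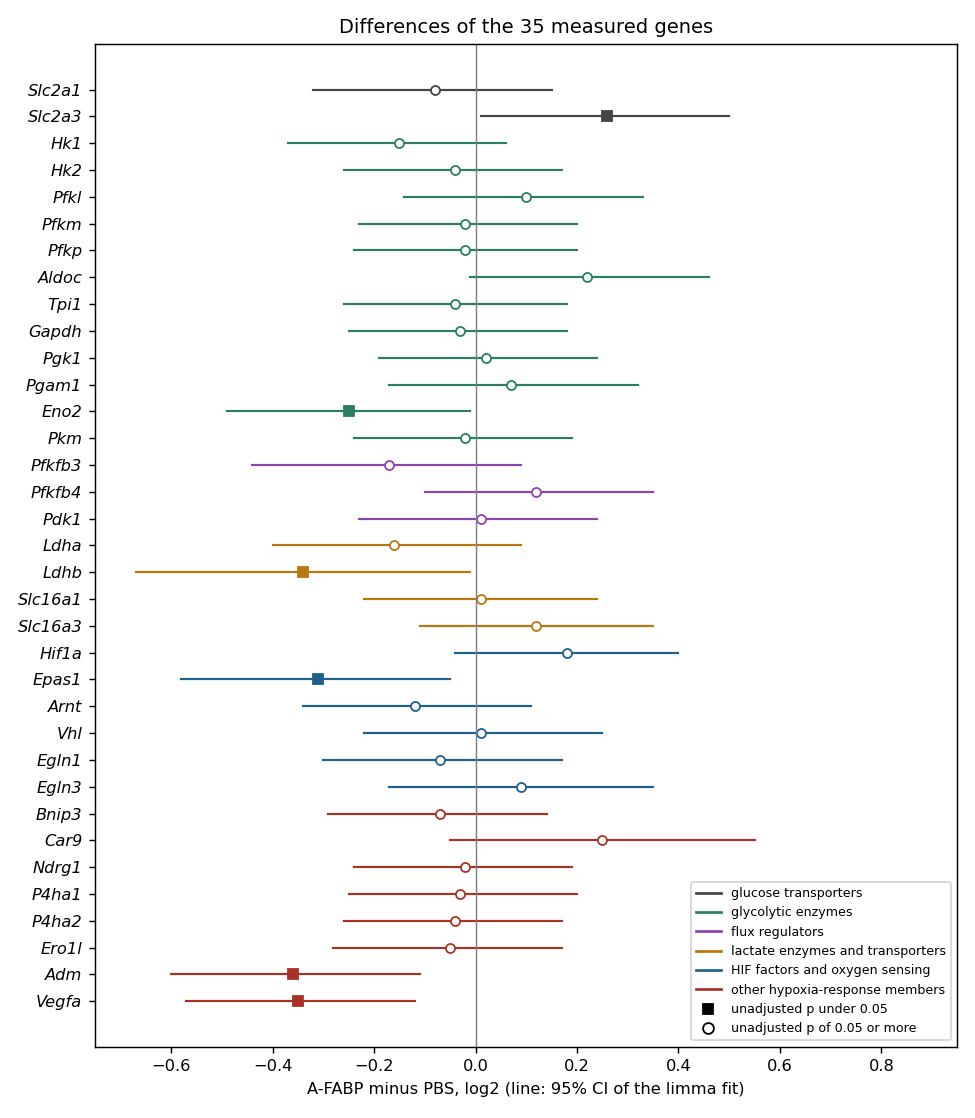
Difference between A-FABP and PBS on the log2 scale (points) with the 95% CI of the limma fit (lines) for the 35 measured genes, 2 arrays per group, coloured by role. The 6 filled squares mark unadjusted p under 0.05, of which 5 lie to the left of 0 and Slc2a3 to the right.

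Flux through glycolysis is set partly by enzymes outside the main chain. Pfkfb3, which makes the sugar bisphosphate that activates phosphofructokinase, read 9.34 on both A-FABP arrays and 9.43 and 9.59 under PBS. The difference was -0.17 (95% CI -0.44 to 0.09). Its relative Pfkfb4 read 8.20 and 8.26 against 8.07 and 8.13, a difference of 0.12 (95% CI -0.10 to 0.35). The pair thus lay on opposite sides of 0 with non-overlapping groups in each, and neither interval excluded 0. Pdk1, a pyruvate dehydrogenase kinase that restrains pyruvate oxidation in hypoxia, read 9.26 and 9.30 against 9.31 and 9.23. Its groups overlapped, and the difference was 0.01 (95% CI -0.23 to 0.24).

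Lactate dehydrogenase subunits interconvert pyruvate and lactate. Ldha, the hypoxia-inducible subunit that favours lactate and whose upstream sequence is shown above, read 9.21 and 9.10 under A-FABP and 9.29 and 9.34 under PBS. Both A-FABP arrays were lower, at a difference of -0.16 (95% CI -0.40 to 0.09). Ldhb, the heart-type subunit, read 5.36 and 5.17 against 5.69 and 5.53. Its groups did not overlap, and the difference was -0.34 ± 0.12 (95% CI -0.67 to -0.01; limma adjusted p = 0.322). These values lay below the array medians of 5.95 to 6.03, in a range where the median gene lay at -0.15. The lactate exporter gene Slc16a3 read 10.72 and 10.68 against 10.62 and 10.54, a difference of 0.12 (95% CI -0.11 to 0.35), and Slc16a1, which encodes the other monocarboxylate transporter listed, lay at 0.01 with overlapping groups.

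The subunits of the hypoxia-inducible factors lay on both sides of 0. Hif1a read 11.33 and 11.37 under A-FABP and 11.18 and 11.17 under PBS. Both A-FABP arrays were higher, with a difference of 0.18 ± 0.08 (95% CI -0.04 to 0.40; limma adjusted p = 0.373). Epas1, which encodes the second alpha subunit, read 5.64 and 5.67 against 6.05 and 5.89. The A-FABP arrays were lower, at -0.31 ± 0.09 (95% CI -0.58 to -0.05; limma adjusted p = 0.304), again at a level where the median gene lay at -0.15. Arnt read 11.40 and 11.32 against 11.48 in both controls, a non-overlapping difference of -0.12 (95% CI -0.34 to 0.11).

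The oxygen-sensing arm showed small values. Vhl read 8.16 and 8.25 under A-FABP and 8.16 and 8.22 under PBS, and the difference was 0.01 (95% CI -0.22 to 0.25). Egln1, the main prolyl hydroxylase, lay at -0.07 with lower A-FABP arrays. Egln3, which is itself a target of the factors, lay at 0.09 with overlapping groups.

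Among the remaining targets, 7 of 8 lay below 0, at a median of -0.05 (0.02 after median centring). The share above 0 was 12.5%, where all genes had 47.6% and genes with a mean of at least 7, as all of these have, had 72.3%. After median centring Ndrg1, P4ha1, P4ha2 and Ero1l lay above 0 as well as Car9. Adm read 12.41 and 12.31 under A-FABP and 12.74 and 12.69 under PBS, so that both A-FABP arrays were lower. This is 1.28-fold lower (95% CI of the log2 difference -0.60 to -0.11), with a limma adjusted p of 0.296 and an unadjusted p of 0.0153. Leaving out each array in turn gave -0.41 to -0.30. Vegfa read 11.60 and 11.53 against 11.90 and 11.93, again with both A-FABP arrays lower. Its 1.27-fold lower level (95% CI of the log2 difference -0.57 to -0.12) had a limma adjusted p of 0.296 and an unadjusted p of 0.0131, and it ranged from -0.38 to -0.31 with each array left out.

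For both genes the gap between groups was several times the SD within them. The SD was 0.07 and 0.03 for Adm and 0.05 and 0.02 for Vegfa (A-FABP and PBS, n = 2 each). Such a gap was common, since the difference exceeded the SD of either group in 27 of the 35 genes. It therefore does not set Adm and Vegfa apart. Bright genes differed little in general. Of 864 genes with a mean of at least 11, the quartiles of the difference were -0.03 and 0.07, and only 1 lay lower than Adm and 2 lower than Vegfa, Adm among them. RNA of a whole culture was measured, so fewer cells with the transcript and less transcript per cell cannot be told apart.

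Other targets of the same factors lay closer to 0. Bnip3, a mitophagy receptor, lay at -0.07 and Ndrg1, a stress-induced gene, at -0.02. The collagen prolyl hydroxylase genes P4ha1 and P4ha2 lay at -0.03 and -0.04. Ero1l, an oxidase of protein folding, read 13.22 and 13.16 against 13.23 and 13.25 and lay at -0.05 (95% CI -0.28 to 0.17). Car9, the cell-surface carbonic anhydrase that helps to export acid and is widely used as a hypoxia marker, lay on the other side, at 7.29 and 7.40 under A-FABP and 7.18 and 7.0 under PBS. Its difference was 0.25 ± 0.11 (95% CI -0.05 to 0.55; limma adjusted p = 0.370), and the A-FABP arrays were higher.

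Of the 35 genes, 8 had more than 1 probe set, and in 4 of these the probe sets lay on opposite sides of 0. For Hif1a, the dimmer probe set read 6.24 and 6.26 under A-FABP and 6.44 and 6.46 under PBS. It lay at -0.20 (95% CI -0.41 to 0.02) against 0.18 at the brighter one, with groups that did not overlap at either and in opposite order. The other Pgam1 probe set read 9.14 and 9.18 against 9.38 and 9.52, at -0.29 (95% CI -0.55 to -0.03), whereas the brighter one read 11.50 and 11.44 against 11.45 and 11.34, at 0.07. Pgam1 encodes the phosphoglycerate mutase of glycolysis.

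For Car9, the second probe set read 6.99 and 7.02 against 7.01 and 7.08, with overlapping groups and a difference of -0.03 (95% CI -0.26 to 0.19), so the higher level rests on a single probe set. Gapdh had 3 probe sets, at -0.03, 0.01 and 0.04, of which the second read 13.58 and 13.59 against 13.60 and 13.54 and the third 10.64 and 10.43 against 10.51 and 10.49. Those of Slc2a1, Ndrg1, Ero1l and Pdk1 were on the same side of 0. The dimmer Slc2a1 probe set read 6.18 and 6.25 under A-FABP and 6.57 and 6.63 under PBS, at -0.38 (95% CI -0.61 to -0.15; limma adjusted p = 0.296), against -0.08 at the brighter one. At a level of 6 to 7 the median gene lay at -0.10. Which part of a transcript each probe set reads was not used here.

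**Figure D4:**
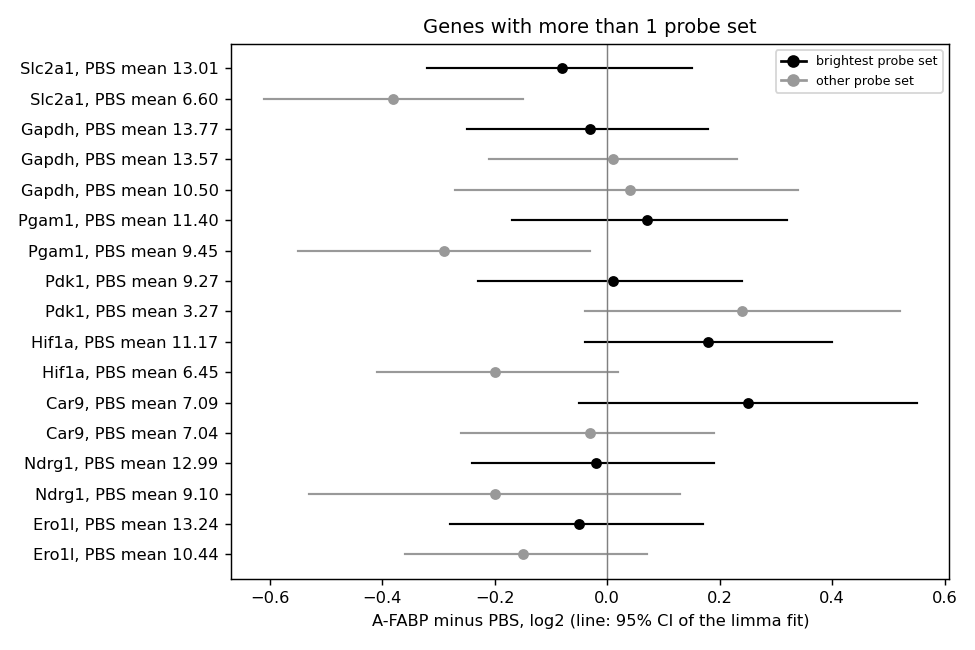
Difference between A-FABP and PBS on the log2 scale with its 95% CI for each probe set of the 8 genes that have more than 1, labelled with the mean of the PBS arrays (black, the brightest probe set; grey, the others). The probe sets of Hif1a, Pgam1, Car9 and Gapdh lie on both sides of 0, and the dimmer Slc2a1 probe set lies further from 0 than the brighter one.

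Related genes outside the set were followed as lists of other hypoxia-response genes, regulators of the factors, other isoenzymes, pyruvate entry and the pentose phosphate pathway. No gene of these lists passed the adjusted threshold. Of 26 other hypoxia-response genes, 19 lay below 0 and 7 above (26.9%, where all genes had 47.6%). Level plays a part in this share. Below 0, Stc2, Epo, Vldlr, Angptl4, Lox, Igfbp3, Cxcr4 and Tmem45a, named here for their level, had means between 5 and 7. The median gene there lay at -0.15 or -0.10. The 7 genes above 0 all had a mean of at least 7, where 72.3% of all genes lay above 0. The list median was -0.17 (quartiles -0.27 and 0.00), where all genes had -0.01. At an unadjusted p under 0.05, 6 lay lower and 0 higher, a share of 23.1% where all genes had 8.24% lower. Leaving out each array in turn moved the median of this list between -0.15 and -0.10, and it was -0.11 after median centring.

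The 3 leading genes of that list were Stc2, Hilpda and Hmox1. Stc2, a secreted glycoprotein of the stress response, read 5.96 on both A-FABP arrays and 6.35 and 6.67 under PBS, at -0.55 ± 0.14. Hilpda, a lipid droplet protein induced in low oxygen, read 9.40 and 9.20 against 9.71 and 9.70, at -0.40 ± 0.10. Hmox1, which degrades heme, read 10.55 and 10.39 against 10.87 and 10.79, at -0.36 ± 0.10. In all 3 the A-FABP arrays were lower than the controls, and the limma adjusted p was 0.296, 0.296 and 0.298. Stc2 was at a level of 6 to 7, where the median gene lay at -0.10. Ddit4 (-0.40), Kdm3a (-0.31) and Ak4 (-0.24) were the other genes at an unadjusted p under 0.05, named after their values were seen. Groups did not overlap in 14 lower genes of the list (53.8%, where all genes had 27.5%) and 5 higher genes (19.2%, where all genes had 26.0%). The higher ones included Stc1 (0.27), Fam162a (0.13) and Plod2 (0.10), also named after their values were seen.

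Regulators of the factors had a median of 0.08 over 13 genes. Of these, 10 lay above 0 (76.9%), where all genes had 47.6% and genes with a mean of at least 7 had 72.3%. In the limma fit 0 were at an unadjusted p under 0.05, against 13.0% of all genes. Siah1a, a ubiquitin ligase, lay at 0.17, Hif1an, the asparaginyl hydroxylase that restrains the factors, at 0.12, and Cited2, a competitor for their coactivator, at 0.11. The median was 0.01 after cyclic loess.

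Other glycolytic isoenzymes and gluconeogenic genes had a median of -0.03 over 23 genes (0.03 after median centring). Of these, 15 lay below 0 and 8 above (34.8%, where all genes had 47.6%). At an unadjusted p under 0.05, 4 lay lower (17.4%, where all genes had 8.24%) and 0 higher (4.81% of all genes). Fbp2, a muscle fructose bisphosphatase, lay at -0.33 ± 0.08, Gpd1, a glycerol phosphate dehydrogenase, at -0.31 ± 0.10, and Ldhc, the testis lactate dehydrogenase subunit, at -0.27 ± 0.08. The fourth, Slc2a4, the insulin-responsive glucose transporter gene, lay at -0.22 and was named after its value was seen. Their PBS means of 5.56 to 6.73 were in the range where the median gene lay between -0.15 and -0.10.

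Pyruvate entry genes had a median of 0.03 over 12 genes, and -0.02 after cyclic loess. Of them, 8 lay above 0 (66.7%), where all genes had 47.6% and genes with a mean of at least 7 had 72.3%. None was under an unadjusted p of 0.05 in the limma fit, against 13.0% of all genes. The adjusted count was 0 as well. Pdp1, the phosphatase that reactivates pyruvate dehydrogenase, lay at 0.22, Pcx, pyruvate carboxylase, at 0.17, and Pdk4, a further pyruvate dehydrogenase kinase, at -0.36 ± 0.18 with values of 5.00 and 4.63 against 5.33 and 5.03.

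The 6 pentose phosphate genes had a median of 0.03, with 3 on each side of 0, and -0.03 after cyclic loess. Rpia, which makes ribose phosphate for nucleotides, read 8.68 and 8.75 under A-FABP and 8.36 and 8.39 under PBS. Both A-FABP arrays were higher, at 0.34 ± 0.08 (95% CI 0.11 to 0.56; limma adjusted p = 0.296). Pgd, an NADPH-producing dehydrogenase of the pathway, lay at 0.12 with groups that did not overlap, and H6pd, which encodes a hexose phosphate dehydrogenase of the endoplasmic reticulum, at 0.06 with groups that did.

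**Figure D5:**
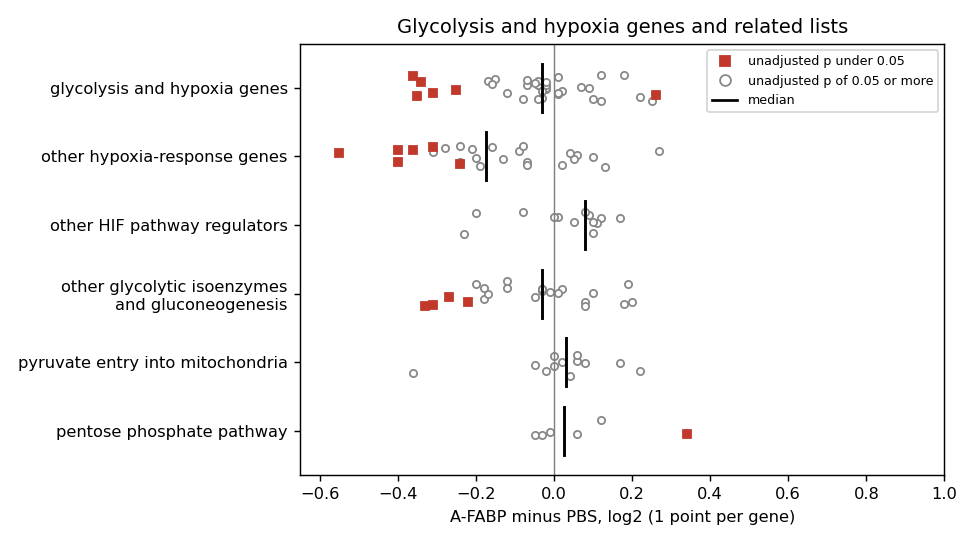
Difference between A-FABP and PBS on the log2 scale, 1 point per gene, for the 35 measured glycolysis and hypoxia genes and 5 lists of related genes, with a bar at each median; vertical scatter within a list has no meaning. The other hypoxia-response genes have the lowest median, at -0.17, and red squares mark an unadjusted p under 0.05.

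Across the whole table, replicate arrays correlated at r = 0.9906 (A-FABP) and 0.9914 (PBS), and arrays of different groups at 0.9853 to 0.9889, over 41345 probe sets. As a check of the cell label, 2 of 5 epithelial markers lay above the array medians, the keratin gene Krt8 at 8.74 to 8.85 and Cdh1 at 6.20 to 6.39, while Epcam read 4.45 to 5.05. So did 4 of 5 fibroblast, 2 of 5 leukocyte, 1 of 5 endothelial and 1 of 5 adipocyte markers. This count therefore does not set epithelium apart. Pdgfra, a mesenchymal receptor, and Cd68, a lysosomal protein of macrophages, read 11.16 to 11.22 and 12.70 to 12.84, while Ptprc, the pan-leukocyte marker, read at most 4.58. The means over 5 markers per type were 6.62 and 6.68 with A-FABP against 6.83 and 6.84 for leukocytes, 6.31 and 6.32 against 6.43 and 6.45 for epithelium, 7.19 and 7.20 against 7.23 and 7.25 for fibroblasts, 5.76 and 5.92 against 5.91 and 5.93 for endothelium, and 5.44 and 5.57 against 5.58 and 5.65 for adipocytes. The median differences of these lists were -0.21, -0.14, 0.01, -0.06 and 0.06 in the same order, so for fibroblasts and adipocytes the median lay above 0 although the mean level was lower. Among the adipocyte markers, Cidea (-0.47) and Cebpa (-0.28) lay below 0 and Adipoq, Lep and Plin1 above. In the leukocyte and epithelial lists only Csf1r (0.16) and Krt8 (0.02) lay above 0. Ptprc, Itgam, Adgre1 and Epcam were at levels of 4 to 6, where the median gene lay at -0.11 or -0.15. The part of these markers in the values of Adm and Vegfa was not tested.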

How the data were processed

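Biotin-labelled RNA of 4 samples was hybridised to single-colour arrays, 2 per group. The deposited table holds log2 values per probe set, and the submitters' processing notes name RMA and Partek 6.6. RMA understates differences at the dim and bright ends. Detection was not called, since background flags were not used here, and the sources used here do not give the array's genome build. For arrays, their number limits the precision.

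Differences are A-FABP minus PBS, from limma 3.58.1 under R 4.3.3 (lmFit, then eBayes) on the whole table of 41345 probe sets, two-sided, with Benjamini-Hochberg adjustment and a threshold of 0.05. It had 2 residual degrees of freedom and 1.91 from the prior. Standard errors (SE) and 95% confidence intervals (CI) come from it. The script was run on data simulated from the same model, which checks the code but cannot test the assumptions of the fit. The smallest two-sided p of an exact permutation test with 2 arrays a group is 0.333. Names came from 23521 probe sets with 1 gene. A further 1814 name several genes and 16010 none.

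Members and lists were chosen with earlier results of these data known. Array values are given for members with an unadjusted p under 0.05 and non-overlapping groups, for the factors and Vhl, for 6 textbook readouts (Slc2a1, Hk2, Ldha, Pdk1, Car9, Vegfa), for members whose probe sets disagree in sign, and for others beyond this rule. Of each related list the 3 genes with the lowest p are named. Alternatives were other scalings, a level filter, other variance settings, a replicate block, averaged probe sets and leaving out each array.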

Additional observations from a re-analysis of the deposited data

How the results depend on the processing

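Adm, Vegfa, Epas1, Ldhb, Eno2, Slc2a3, Aldoc and Car9 kept their direction in all 11 alternatives (10 for Epas1 and Ldhb, which the filter at the median level removes), and 0 genes of the set passed the adjusted threshold in any of them. Limma adjusted p-values ranged from 0.161 to 0.579 for Adm and from 0.156 to 0.579 for Vegfa. The cause of the changes below was not tested.

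The count of higher genes at an unadjusted p under 0.05, 1 as reported, was 3 after median centring and with the filter, 2 with trend and robust settings, and 0 after cyclic loess, repeated quantile normalization and the replicate block. The count of lower genes, 5 as reported, was 2 after median centring and 3 after cyclic loess, with the filter and with the replicate block. Leaving out an array gave 0 higher genes each time and 0 to 3 lower genes (3 without A-FABP replicate 1, 0 without A-FABP replicate 2 or PBS control replicate 1, and 1 without PBS control replicate 2). All genes shifted as well, from 1066 higher and 1828 lower as reported to 1812 and 1048 after median centring, 1443 and 865 with the filter, 1889 and 1425 with trend and robust settings, 979 and 1062 after cyclic loess, 813 and 1445 after repeated quantile normalization and 723 and 1464 with the replicate block. Without an array they fell to 362 to 705 higher and 772 to 1554 lower. The fits that leave out an array have fewer arrays and assume that the lone array varies like the other group. Deviations of arrays with the same replicate number correlated at r = -0.00889, so the numbers are not taken as pairing.

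Median centring moved the median of the set to 0.04, of glucose transporters to 0.15, glycolytic enzymes to 0.04, flux regulators to 0.07, lactate genes to -0.01, the factors and oxygen sensing to 0.04, the other targets to 0.02, isoenzymes to 0.03 and pyruvate entry to 0.09. Cyclic loess and repeated quantile normalization gave 0.07 and 0.05 for glucose transporters, -0.06 and -0.05 for flux regulators, -0.12 with both for lactate genes, -0.08 and -0.07 for the factors, and -0.02 with both for pyruvate entry. The filter gave 0.01 for lactate genes and 0.01 for the factors. Averaging all probe sets of a gene gave 0.01 for glucose transporters, 0.12 for flux regulators and -0.09 for the other targets.

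Single genes changed sign as follows. Under median centring Hk2 lay at 0.02, Pfkm at 0.05, Pfkp at 0.05, Tpi1 at 0.03, Gapdh at 0.03, Pkm at 0.04, Ndrg1 at 0.04, P4ha1 at 0.04, P4ha2 at 0.02 and Ero1l at 0.01. Under cyclic loess and repeated quantile normalization Pdk1 lay at -0.06 and -0.05, Slc16a1 at -0.02 with both and Vhl at -0.05 and -0.06. With probe sets averaged Pgam1 lay at -0.11 and Hif1a at -0.01. Leaving out an array gave -0.04 to 0.05 for Pdk1, -0.03 to 0.06 for Vhl and -0.03 to 0.05 for Slc16a1.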
